A study of Mus musculus with 20 samples.

Results

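The collagen genes are the protein-coding genes whose symbols hold Col, a number, a and a second number, and that had a count above 0 in at least 10 of the 20 muscles. There were 42 of them among 44 such symbols and 55416 listed genes. The other 2, Col10a1 and Col6a4, had counts in fewer muscles. By class, 11 were fibrillar, 8 belonged to basement membranes and 23 to other kinds of collagen. A filter on low counts kept 35 of the 42 for testing, 10 of the fibrillar, all 8 of the basement membrane and 17 of the other members, out of 14471 genes tested. The 7 that were not tested were Col2a1, Col9a1, Col9a2, Col9a3, Col17a1, Col25a1 and Col26a1, none of which had over 18 counts in a muscle.

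Collagens are secreted proteins in which 3 chains wind into a triple helix. In skeletal muscle the fibrillar types I, III and V form the fibrils of the connective tissue between fibres and are made mainly by fibroblasts and fibro-adipogenic progenitors. Type IV forms the sheet-like network of the basement membrane around each fibre and vessel, and type VI links that membrane to the fibrils outside it. Before secretion the chains are hydroxylated and folded in the endoplasmic reticulum, and afterwards they are trimmed, cross-linked and in time degraded by metalloproteinases.

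RNA was measured in quadriceps tissue of male wild-type (WT) C57BL/6J mice aged 26 to 28 months, 10 per treatment. The methods describe RNA isolated from a small piece of tissue, and which part of the muscle it came from is not given. Control muscles received 1 intramuscular injection of 50 µL of saline. Secretome muscles received the same volume of a cell-free product diluted in saline. The product was concentrated from medium in which partially differentiated human embryonic stem cells had been grown. According to the methods the mice had been fasted and the injected muscle was collected within hours, so the values describe an early time after a single dose. The labels name quadriceps as the source of all samples but mention myotubes in their extraction text. The 7 muscle fibre markers examined, such as Acta1 and Ckm, were all tested and summed to between 59835 and 120497 CPM in a muscle (CPM is the count scaled to a common library size). In bulk muscle, fewer cells of a type and less RNA per cell cannot be told apart.

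The labels number the libraries from 1 to 20, with control in 1 to 10 and secretome in 11 to 20. Totals ran from 13286983 to 22987237 counts per library. Libraries 1 to 5 (control 1 to 5) stood apart. The titin gene Ttn took 7.02 to 11% of their counts, against 16.4 to 21.1% in control 6 to 10, 17.8 to 20.7% in secretome 1 to 5 and 14.2 to 14.7% in secretome 6 to 10. Because ranges of library number lie within treatments, the comparison was made over all 20 muscles, then in libraries 6 to 15 alone (control 6 to 10 against secretome 1 to 5, 5 per group). Between libraries 1 to 5 and 16 to 20, treatment and library number cannot be told apart. What the numbers stand for is not given in the labels.

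Per kilobase of its longest protein-coding transcript, Col4a1 had the highest mean level in control muscle. Col4a1 encodes the α1 chain of type IV collagen and averaged 24.9 ± 7.08 CPM per kb (SD, n = 10), above 89.8% of all genes tested. The fibrillar genes Col3a1, Col1a2 and Col1a1 averaged 21.9 ± 15.7, 19.8 ± 13.3 and 15.5 ± 12.1 CPM per kb, and Col4a2, the partner of Col4a1, 17.6 ± 4.84. These 5 means lay within the spread of the fibrillar genes, so their order was not resolved. The order of Col1a1 and Col1a2 also depended on the length used. Their ratio of counts per length was 0.741 with the longest protein-coding transcript, and 1.56 with all annotated exons, which include retained introns of Col1a2. Below them came Col6a1 and Col6a2 of the beaded filaments (10.7 ± 5.01 and 10.4 ± 5.25 CPM per kb) and the type V chain Col5a3, which limits fibril width (7.57 ± 4.7). Col7a1, the anchoring fibril gene best known from skin, averaged 5.27 ± 3.38 CPM per kb. The keratins Krt5 and Krt1 were at 0 counts in every muscle, and the 4 skin markers summed to at most 0.978 CPM.

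**Figure D1:**
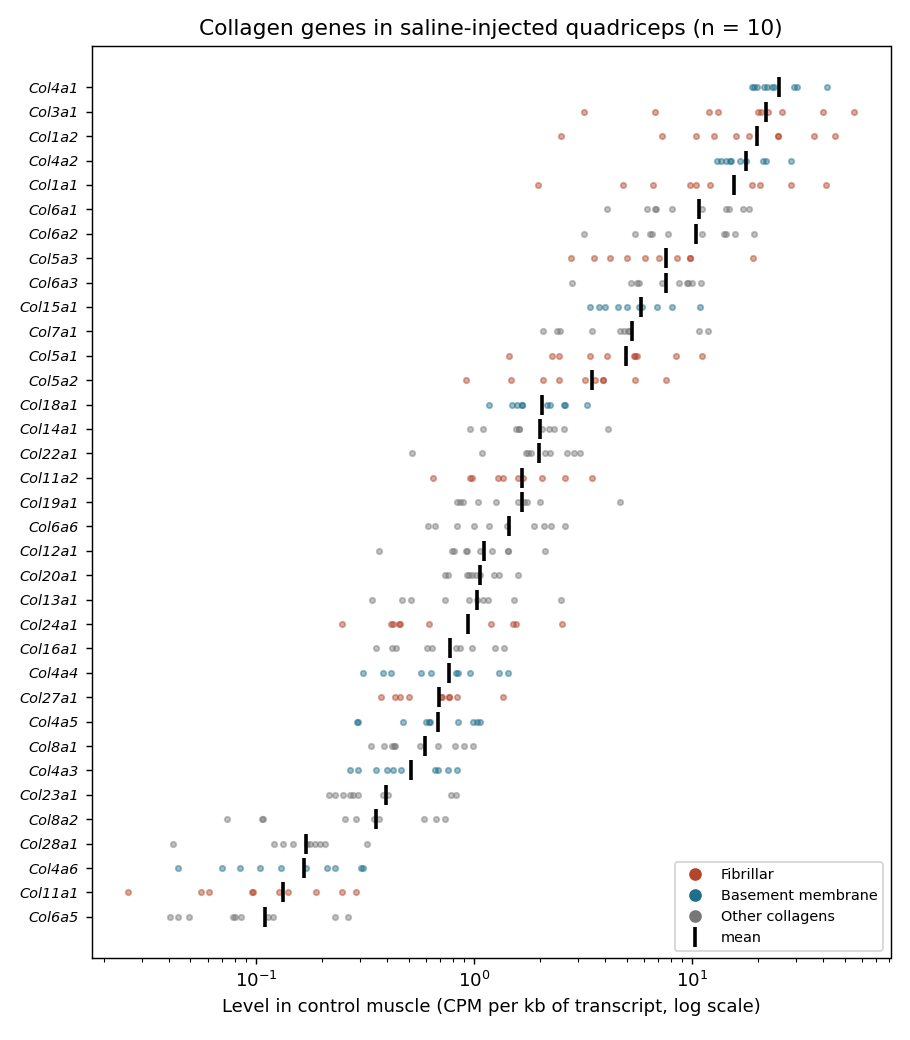
Level of the 35 tested collagen genes in control muscle, in CPM per kilobase of the longest protein-coding transcript on a log axis. Each point is 1 of 10 muscles (values of 0 are not drawn), black ticks are means and colours give the class; Col4a1 is highest at 24.9 and the fibrillar genes spread most widely.

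The fibrillar genes varied most among muscle samples of the same treatment. Over the 10 control muscles the highest level of a fibrillar gene was 3.6 to 20.9 times its lowest (median 9.23 over 10 genes), against 2.2 to 7.08 times for basement membrane genes (median 3.15 over 8 genes). In secretome muscle the medians were 4.76 and 2.81. Single muscle samples set the extremes. Control 2 held the highest value of the 20 muscles for 16 of the 35 genes, and control 8 the lowest for 12. Together the 42 members took from 0.0505% of normalised counts in control 8 to 0.212% in control 2. Secretome muscles lay inside that range, from 0.0529% to 0.135%.

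Col1a1 and Col1a2 encode the chains of type I collagen, the main fibril of connective tissue, and kept a near-constant ratio over this wide range. Col1a1 was 11.7 CPM in the lowest, 66.6 in the median and 245 in the highest control muscle, and 20.3, 48.8 and 123 CPM in secretome muscle. Across the 20 muscles Pearson's r of the log2 levels of Col1a1 and Col1a2 was 0.992 and Spearman's rho 0.976. Each had a permutation p of 1e-05 (two-sided, 100000 resamples), the smallest these resamples can give, and 1e-05 after Benjamini-Hochberg adjustment over 6 pairs. In libraries 6 to 15 r was 0.99, and without the 2 most distant muscles 0.991. For Col1a1 and Col3a1 r was 0.956 (rho 0.956, the same p of 1e-05) and 0.959 in libraries 6 to 15. For Col6a1 and Col6a2, r was 0.991 (rho 0.995, p of 1e-05). The 2 main type IV chains gave 0.933 (rho 0.856), and Col4a3 with Col4a4, the less abundant chains known from kidney filters, 0.861 (rho 0.824). Between types, Col1a1 and Col4a1 gave 0.761 (rho 0.785, permutation p of 7e-05 for both), and 0.597 in libraries 6 to 15. The points of each pair share their libraries and depth.

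**Figure D2:**
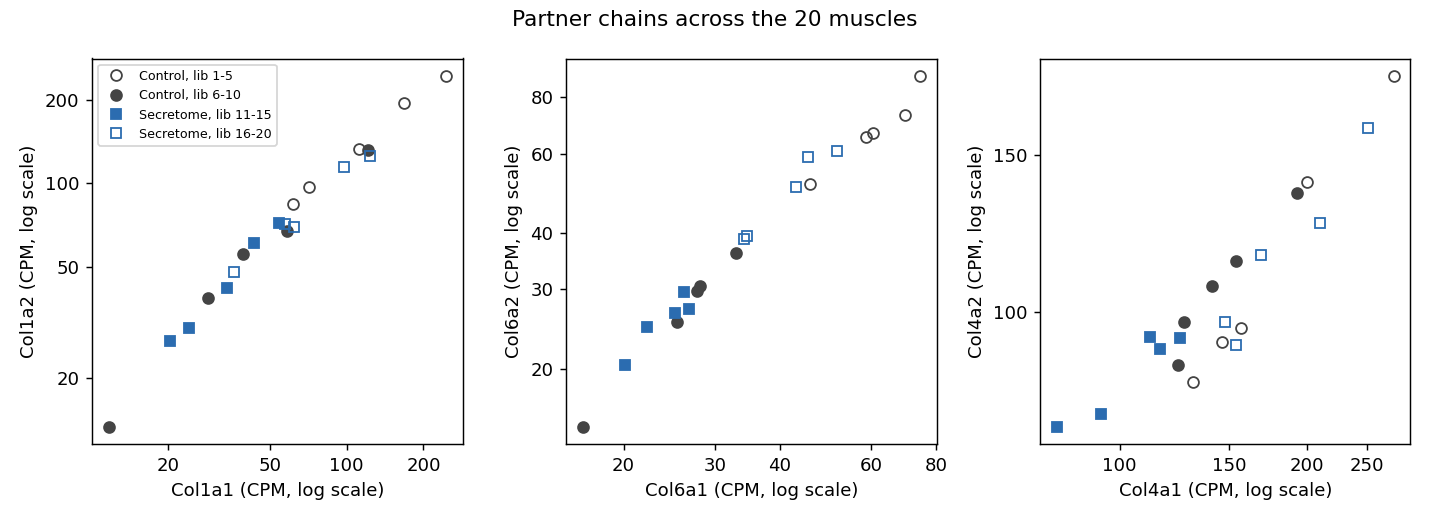
Levels of 3 pairs of chains that assemble together, in CPM on log axes, with 1 point per muscle, circles for control, squares for secretome and filled symbols for libraries 6 to 15. Each pair lies along a line (r of 0.992, 0.991 and 0.933), and the filled symbols of the type IV panel have Col4a1 at 79.2 to 125 CPM with secretome and 124 to 193 CPM in control.

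The upstream sequences of Col1a2 and Col3a1, whose fibrils mix in tissue and whose levels moved together here, are shown beside the start region of the type IV pair. They come from RefSeq on GRCm38.p6, a different build from that of the counts. Capitals mark the TATA motif TATAAA, the box with the letters CCAAT and the GC box GGGCGG, searched on both strands in the 250 bases before each start site. Col1a2 (plus strand, chr6:4505368-4505617) held CCAAT at -109 and GGGCGG at -205 and -188 from its start. Col3a1 (plus strand, chr1:45311288-45311537) held TATAAA at -117. Col4a1 (minus strand, start at 11312826) and Col4a2 (plus strand, start at 11312805) are transcribed away from each other. Their annotated starts overlap by the 22 bases of chr8:11312805-11312826, written on the plus strand. The GGGCGG in capitals in this stretch lies within both annotated transcripts, and so outside the 250 bases before either start.
Col1a2: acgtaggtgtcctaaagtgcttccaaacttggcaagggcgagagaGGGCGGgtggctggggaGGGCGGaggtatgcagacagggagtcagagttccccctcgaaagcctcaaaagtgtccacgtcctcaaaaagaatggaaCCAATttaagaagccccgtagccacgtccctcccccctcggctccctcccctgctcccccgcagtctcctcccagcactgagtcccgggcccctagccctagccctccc
Col3a1: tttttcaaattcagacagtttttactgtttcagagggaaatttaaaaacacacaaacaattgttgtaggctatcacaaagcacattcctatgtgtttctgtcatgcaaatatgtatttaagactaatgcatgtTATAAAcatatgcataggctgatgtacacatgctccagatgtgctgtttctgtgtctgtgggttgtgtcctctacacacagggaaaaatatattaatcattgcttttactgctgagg
Col4a1/Col4a2: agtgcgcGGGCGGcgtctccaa
Of the 36 promoter windows that matched a member (33 genes), 21 held GGGCGG (58.3%), 12 held CCAAT (33.3%) and 4 held TATAAA (11.1%). Of all 32851 promoter windows, 32.7%, 33.8% and 12.4% did. Such matches describe the letters in these windows and not binding.

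Over all 20 muscles collagen genes were lower with secretome in most cases, by amounts that did not pass the correction for the number of genes. Of the 35 tested members 33 had a negative log2 fold change, against 55.9% of all genes. The median log2 fold change was -0.42 over the members and -0.03 over all genes. It was -0.50 for the fibrillar, -0.45 for the basement membrane and -0.33 for the other members. With the 3 ranges of library number as a term these medians were -0.31, -0.28 and -0.11, and with limma voom and quality weights -0.24, -0.28 and -0.16. By edgeR's quasi-likelihood test 0 members passed a 5% false discovery rate, where 0.00691% of all genes (1 gene) did, and DESeq2 called 1 member, Col4a4 (adjusted p = 0.0469). At an unadjusted p under 0.05, 7 members (20% of those tested) were lower and 0 higher, against 9.21% of all genes lower and 6.52% higher. That count was 14 without control 8, the muscle lowest in collagens. It was 2 (Col18a1 and Col4a1) with the ranges as a term. No share of all genes is given for DESeq2, for these settings or for the alternative settings below. Such counts show only how the number of members moved.

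Of the 7, 4 were basement membrane genes. Col4a4 lay between 3.11 and 14.5 CPM in control (median 7.38) and between 2.47 and 6.07 CPM with secretome (median 4.4). All 10 secretome muscles were below the control median, and the log2 fold change was -0.85 ± 0.24 (SE), with p = 0.00176 and adjusted p = 0.148. Its partner Col4a3 ran from 2.31 to 7.14 CPM in control (median 3.78) and from 0.933 to 4.04 with secretome (median 2.23), with a log2 fold change of -0.82 ± 0.249 (p = 0.00307, adjusted p = 0.158). The groups overlapped for both genes. These differences were smaller in libraries 6 to 15, at -0.19 ± 0.255 (p = 0.471) for Col4a4, with 2 of 5 secretome muscles below the control median, and at -0.36 ± 0.271 (p = 0.202) for Col4a3. An opposite-strand transcript covers 5.65% of the annotated exon length of Col4a3, and the strand setting of the counting is not given in the sources used here. Col4a5, the chain that joins Col4a3 and Col4a4 in a trimer, gave -0.53 ± 0.222 (p = 0.0257), with all 10 secretome muscles below the control median, and -0.16 ± 0.321 (p = 0.636) in libraries 6 to 15. Col18a1, the source of the fragment endostatin, gave -0.45 ± 0.176 (p = 0.018). The more abundant Col4a1 and Col4a2 gave -0.18 ± 0.186 (p = 0.35) and -0.16 ± 0.149 (p = 0.308). Col15a1, a relative of Col18a1 in the outer basement membrane zone, gave -0.31 ± 0.213 (p = 0.162).

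All 10 tested fibrillar genes had negative log2 fold changes, from -0.73 to -0.30, and the unadjusted p was under 0.05 for Col27a1 alone, a minor fibrillar chain best known in cartilage. It ran from 2.86 to 10.3 CPM in control (median 5.39) and from 1.15 to 5.69 with secretome (median 3.79), and 9 of 10 secretome muscles were below the control median (-0.54 ± 0.247, p = 0.0384, adjusted p = 0.291). Its value in libraries 6 to 15 was -0.05 ± 0.196 (p = 0.785). The largest fitted difference was that of Col1a1, at -0.73 ± 0.441 (p = 0.113), followed by Col1a2 at -0.68 ± 0.393 (p = 0.1). Their standard errors were among the widest of the abundant genes. Col3a1, the type III chain, was 17.7, 113 and 308 CPM in the lowest, median and highest control muscle and 28.4, 70.7 and 193 CPM with secretome (-0.42 ± 0.444, p = 0.36). Col5a1, which nucleates type I fibrils, was 12.1, 39.8 and 92.9 CPM in control and 13.4, 22.9 and 50.5 CPM with secretome (-0.59 ± 0.319, p = 0.0808). Without control 2 the fold change of Col3a1 was -0.15 and that of Col1a1 -0.44. The remaining fibrillar genes named by level were Col5a3 (-0.46 ± 0.284), Col5a2 (-0.33 ± 0.321), Col24a1 (-0.41 ± 0.364) and Col11a2 (-0.30 ± 0.303). They were nearest to 0 without 1 control muscle each, at -0.20 for Col5a3 and -0.12 for Col5a2 without control 2, -0.10 for Col24a1 without control 6 and -0.11 for Col11a2 without control 9.

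Among the other collagens, Col23a1 and Col6a6 were lower at an unadjusted p under 0.05. Col23a1, a transmembrane collagen, ran from 1.22 to 4.66 CPM in control (median 1.62) and from 0.547 to 1.99 with secretome (median 1.23). The fold change was -0.79 ± 0.285 (p = 0.0105, adjusted p = 0.205). Control 2 and control 9 were the highest muscles for it, at 4.66 and 4.44 CPM. Col6a6, a chain that can take the place of α3 in type VI collagen, ran from 5.42 to 22.9 CPM in control (median 11.3) and from 6.61 to 12.2 with secretome (median 9.13), at -0.49 ± 0.229 (p = 0.0447, adjusted p = 0.304). Its direction turned in libraries 6 to 15, where the value was 0.14 ± 0.186 (p = 0.456), and with the ranges of library number as a term (0.13). The main type VI chains gave -0.42 ± 0.249 for Col6a1, -0.36 ± 0.283 for Col6a2 and -0.15 ± 0.218 for Col6a3. Col6a1 was 16.7, 39.4 and 74.4 CPM in the lowest, median and highest control muscle and 20.1, 30.4 and 51.5 with secretome. For Col6a2 the same values were 14.9, 43.7 and 89.1 CPM in control and 20.4, 34.2 and 60.7 with secretome. The secretome range lay inside the control range for both.

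Several members were close to 0 in difference. Col22a1, found at the junction of muscle and tendon, gave 0.01 ± 0.258 and Col8a1, a short-chain collagen of vessels, 0.12 ± 0.222, the only positive values. Col12a1 and Col14a1, which sit on fibril surfaces, gave -0.06 ± 0.271 and -0.33 ± 0.217. Col19a1, of the same family, gave -0.05 ± 0.304, and Col13a1, a transmembrane collagen of the neuromuscular junction, -0.06 ± 0.307. The signs of Col12a1, Col13a1, Col19a1 and Col22a1 changed when single muscles were left out. The other named members were Col7a1 (-0.33 ± 0.325), Col20a1 (-0.30 ± 0.171), Col16a1 (-0.52 ± 0.271) and Col8a2 (-0.68 ± 0.401).

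**Figure D3:**
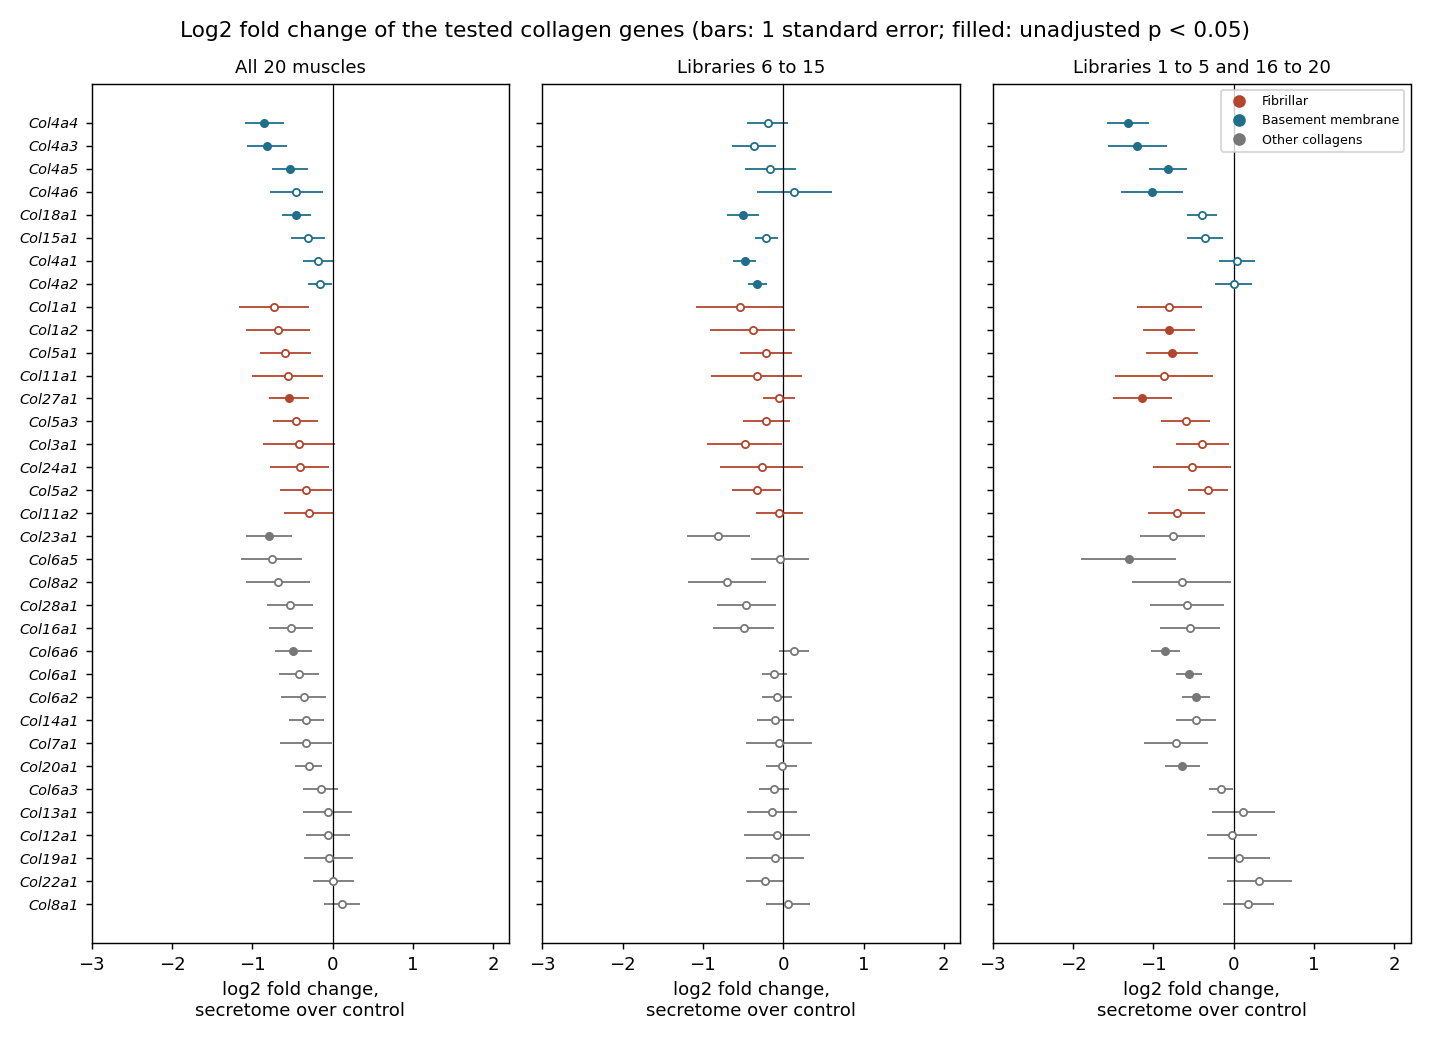
Log2 fold change, secretome over control, of the 35 tested collagen genes over all 20 muscles (left), in libraries 6 to 15 (middle) and between libraries 1 to 5 and 16 to 20 (right). Bars span 1 standard error each way and filled points have an unadjusted p under 0.05; 33, 32 and 30 of the 35 points lie left of 0.

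In libraries 6 to 15 the members lower at an unadjusted p under 0.05 were Col4a1, Col4a2 and Col18a1. Of these, Col4a1 and Col4a2 moved together there (r of 0.967). By edgeR 0 members passed the false discovery rate, as did 0% of all genes, and DESeq2 also called 0. At an unadjusted p under 0.05, 3 members (8.57%) were lower and 0 higher, against 4.88% of all genes lower and 5.02% higher. DESeq2 gave 4, with Col23a1 added. Col4a1 was 141, 154, 127, 193 and 124 CPM in control 6 to 10 and 93.4, 79.2, 112, 125 and 116 CPM in secretome 1 to 5. Only secretome 4 reached the lowest control value, and the log2 fold change was -0.48 ± 0.146 (p = 0.00552, adjusted p = 0.412). Col4a2 was 107, 114, 97.4, 136 and 87.2 CPM in control 6 to 10 and 76.9, 74.4, 93.7, 93.5 and 90.9 CPM in secretome 1 to 5 (-0.32 ± 0.122, p = 0.0198, adjusted p = 0.453). All 5 secretome muscles were below the control median for both genes. Col18a1 was 8.31, 9.23, 6.55, 14.6 and 8.76 CPM in control 6 to 10 and 6.8, 5.26, 8.13, 5.86 and 7.25 CPM in secretome 1 to 5 (-0.50 ± 0.199, p = 0.0256, adjusted p = 0.473). Its p was over 0.05 without control 9, where the fold change was -0.29.

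The direction of the remaining members in libraries 6 to 15 rested on control 9. With all 10 muscles, 32 of 35 members had a negative log2 fold change, with medians of -0.30 for fibrillar, -0.27 for basement membrane and -0.10 for other members. Of all genes, 52% did. Without control 9 only 16 of 35 members did. The fibrillar median was then 0.04, that of other members 0.04, and that of the basement membrane members -0.13. Col1a1 in control 9 was 121 CPM, and 11.7 to 58.1 CPM in the other control muscles of the range. Without control 9 the fold changes of Col4a1 and Col4a2 were -0.36 and -0.23. Leaving out control 8 or secretome 3 gave 6 lower members in place of 3.

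**Figure D4:**
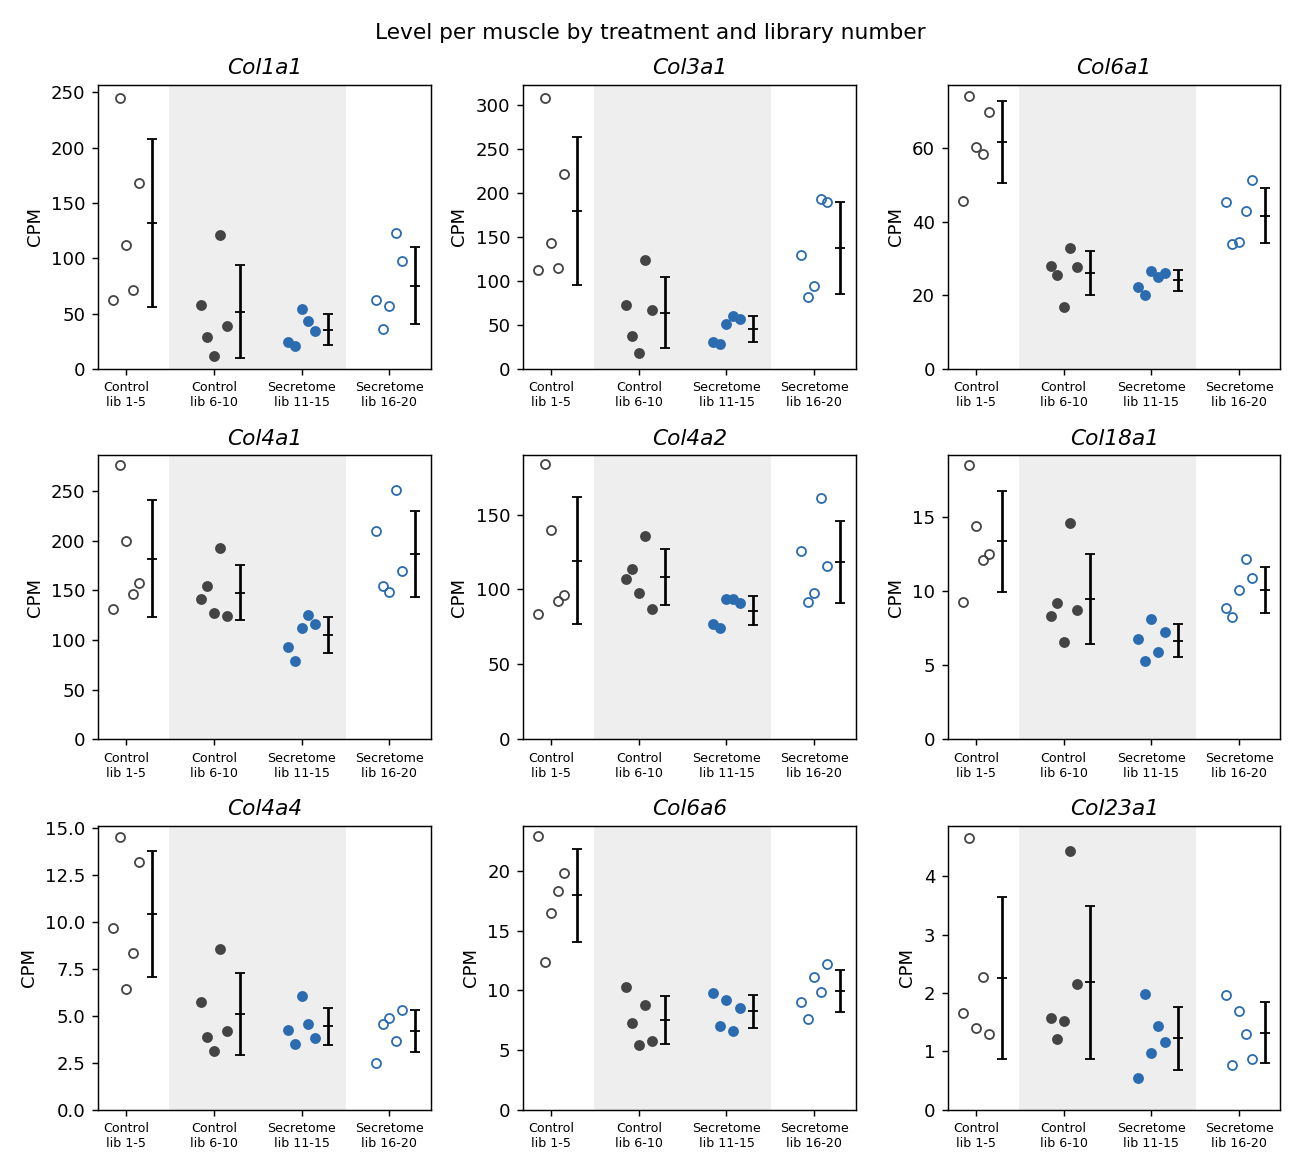
Level of 9 collagen genes in each muscle, in CPM on linear axes from 0, by treatment and library number, with mean and SD of each set of 5 as black bars and libraries 6 to 15 shaded. All 9 genes have their highest value in control libraries 1 to 5, and Col4a1, Col4a2, Col18a1 and Col23a1 have their lowest in secretome libraries 11 to 15.

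Between libraries 1 to 5 and 16 to 20, most members were lower as well. At an unadjusted p under 0.05, 12 members (34.3%) were lower and 0 higher, against 9.19% of all genes lower and 7.02% higher, and 0 passed the false discovery rate by edgeR (0% of all genes). Of the 35 members, 30 had a negative log2 fold change, against 54.6% of all genes. The 12 at an unadjusted p under 0.05 were Col4a3, Col4a4, Col4a5, Col4a6, Col1a2, Col5a1, Col27a1, Col6a1, Col6a2, Col6a5, Col6a6 and Col20a1. Col6a6 was 22.9, 12.4, 16.5, 18.3 and 19.8 CPM in control 1 to 5 and 9.05, 7.6, 11.1, 9.88 and 12.2 CPM in secretome 6 to 10 (-0.85, p = 0.000443). Its groups did not overlap there, while control 6 to 10 lay between 5.42 and 10.3 CPM. Col4a4 was 9.67, 14.5, 6.41, 8.34 and 13.2 CPM in control 1 to 5 and 2.47, 4.57, 4.87, 3.67 and 5.33 CPM in secretome 6 to 10 (-1.32, p = 0.000279). These groups did not overlap either. Col4a4 and Col6a6 had the 2 smallest p of the members in this comparison. The share of all genes with groups apart in this way was not counted. Col4a1 gave 0.04 (p = 0.852) and Col4a2 -0.00 (p = 0.991). Col18a1 and Col23a1 had like values in both comparisons. By edgeR, Col18a1 gave -0.40 (p = 0.0529) here and -0.50 (p = 0.0256) in libraries 6 to 15. Col23a1 gave -0.76 (p = 0.0855) and -0.81 (p = 0.0566) in the same order. Without control 9 the values in libraries 6 to 15 were nearer to 0, at -0.29 for Col18a1 and -0.38 for Col23a1.

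The difference between the contrast in libraries 6 to 15 and that between libraries 1 to 5 and 16 to 20 was tested directly. By edgeR 0 members passed the false discovery rate, where 0.0553% of all genes did. At an unadjusted p under 0.05, 4 members (11.4%) were higher, against 5.59% of all genes, and 0 lower, against 5.51%. They were Col6a6 (difference in log2 fold change 0.98 ± 0.267, p = 0.00136, adjusted p = 0.165), Col4a4 (1.11 ± 0.383, p = 0.00834), Col27a1 (1.09 ± 0.434, p = 0.0206) and Col20a1 (0.61 ± 0.291, p = 0.0497). For Col4a1 the difference was -0.53 ± 0.275 (p = 0.0683). Without control 3 the count of higher members was 2 and without control 9 it was 8, and without control 2 both Col4a1 and Col4a2 were lower at an unadjusted p under 0.05.

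The proportions of partner chains were compared because chains assemble in fixed numbers. The log2 ratio of Col1a1 to Col1a2 differed by -0.03 between secretome and control (permutation p = 0.662, two-sided), that of Col6a1 to Col6a2 by -0.07 (p = 0.175, permutation) and that of Col4a1 to Col4a2 by -0.07 (p = 0.408, permutation). Col3a1 to Col1a1, a ratio of type III to type I, differed by 0.18 (permutation p = 0.229). After Benjamini-Hochberg adjustment over these 4 ratios, p was 0.459 to 0.662. In libraries 6 to 15 the Col4a1 to Col4a2 ratio of counts per length was 1.33 in control and 1.18 with secretome. The difference was -0.17 on the log2 scale (exact permutation p = 0.0238, adjusted p = 0.0952), and between libraries 1 to 5 and 16 to 20 it was 0.03. Over the 4 sets of 5 muscles this ratio ran from 1.39 to 1.59 in control 1 to 5, from 1.27 to 1.39 in control 6 to 10, from 1.04 to 1.31 in secretome 1 to 5 and from 1.42 to 1.64 in secretome 6 to 10. Within libraries 6 to 15 the control and secretome ranges overlapped between 1.27 and 1.31. Whether the ratio goes with library number or with treatment was not tested.

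Genes that make, join, degrade and bind collagen were examined as 4 lists of 68 genes. By edgeR and by DESeq2, 0 of them passed the false discovery rate. Of 25 tested genes of synthesis and processing, 6 (24%) were lower and 2 (8%) higher at an unadjusted p under 0.05, against 9.21% and 6.52% of all genes, and the median log2 fold change was -0.17. Crtap, part of the complex that hydroxylates prolines at the 3 position, ran from 2.27 to 7.37 CPM in control (median 5.32) and from 2.15 to 4.44 with secretome (median 3.32). All 10 secretome muscles were below the control median (-0.59 ± 0.191, p = 0.00506, adjusted p = 0.174). Mia3, which loads collagen into transport carriers, ran from 114 to 179 CPM in control (median 154) and from 160 to 205 with secretome (median 174), with all 10 above the control median (0.23 ± 0.081, p = 0.00959). The other 5 lower genes were the chaperone Fkbp10, the prolyl hydroxylase relatives P3h3 and P3h4, the propeptide protease Bmp1 and its enhancer Pcolce, and the other higher gene was P4ha1, a prolyl 4-hydroxylase subunit.

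Of 14 tested genes of cross-linking and fibril assembly, 1 was lower (7.14%) and 0 higher, near the shares of all genes (9.21% and 6.52%), with a median of -0.25. It was Bgn, a small proteoglycan bound to fibrils, at 23.1 to 83.4 CPM in control (median 40.2) and 19.4 to 44.4 with secretome (median 26.9; -0.57 ± 0.223, p = 0.0182, adjusted p = 0.237). Sparc, a collagen-binding matrix protein, had the next smallest p (-0.29 ± 0.164, p = 0.0898). Of 13 tested turnover genes, 2 were lower (15.4%, against 9.21% of all genes) and 0 higher, with a median of -0.16. Mmp14, a membrane-bound collagenase, ran from 9.92 to 30.5 CPM in control (median 14.3) and from 9.19 to 13.1 with secretome (median 10.5). All 10 secretome muscles were below the control median (-0.60 ± 0.17, p = 0.00172, adjusted p = 0.148). Reck, an inhibitor of such proteases, gave -0.44 ± 0.176 (p = 0.0195). Of 10 tested receptor genes, 1 was lower and 1 higher (10% each, near the shares of all genes). Itga11, the integrin α11 subunit of fibroblasts, gave -0.76 ± 0.289 (p = 0.0146) and Itgb1, the β1 subunit with which it pairs, 0.22 ± 0.0862 (p = 0.0187).

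In libraries 6 to 15, Mmp14 (-0.16), Bgn (-0.18), Reck (-0.04) and Itga11 (-0.07) had smaller differences, each with an unadjusted p over 0.05, while Crtap gave -0.52 (p = 0.0578). At an unadjusted p under 0.05 in that range, 3 genes of synthesis and processing were lower (12%, against 4.88% of all genes) and 2 higher (8%, against 5.02%). The lower ones were P3h4, Plod1 and Serpinh1, the collagen-specific chaperone (-0.34, p = 0.0442). In the cross-linking list 1 gene was lower and 1 higher, the fibril-bound proteoglycan Lum (0.60, p = 0.0089). In the turnover list 0 were lower and 2 higher, the protease inhibitor Timp3 (0.30, p = 0.0277) and the fibroblast protease Fap (0.38, p = 0.0438). In the receptor list 1 was lower and 0 higher. With the 3 ranges of library number as a term, the lower genes over the 4 lists numbered 4 in place of 10.

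Markers of other cell types that make or surround collagen were examined beside these genes. All 8 markers of fibroblasts and fibro-adipogenic progenitors, such as Pdgfra and Dpt, were tested, and their log2 fold changes were negative over all 20 muscles, with a median of -0.38 and 0 at an unadjusted p under 0.05. Their summed level was 825 to 1297 CPM in control 1 to 5, 281 to 640 in control 6 to 10, 346 to 491 in secretome 1 to 5 and 625 to 829 in secretome 6 to 10. The share of normalised counts on the 42 collagen genes was 0.0925 to 0.212%, 0.0505 to 0.13%, 0.0529 to 0.0804% and 0.0769 to 0.135% in the same order. The median over these 8 markers was -0.12 in libraries 6 to 15 and -0.50 between libraries 1 to 5 and 16 to 20. All 4 macrophage markers had negative fold changes, with a median of -0.51, 2 of them at an unadjusted p under 0.05, and a summed level of 28.1 to 84.7 CPM in control and 21.6 to 72.5 with secretome. So did all 5 adipocyte markers, with a median of -0.68, 1 at that threshold, and sums of 52 to 271 CPM in control and 25.8 to 95.8 with secretome. Of 6 pericyte and smooth muscle markers 5 had negative values, 3 at that threshold (median -0.26, sums of 173 to 361 CPM in control and 197 to 336 with secretome). Of all genes, 9.21% were lower at that threshold. In libraries 6 to 15 the macrophage, adipocyte and pericyte medians were -0.60, -0.49 and -0.25. There 2, 2 and 0 of these markers were lower at that threshold, against 4.88% of all genes. The part of these cell types in the collagen differences was not tested.

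Endothelial cells and tendon cells also make collagen. The 6 endothelial markers had a median of -0.06 and sums of 135 to 278 CPM in control and 154 to 252 with secretome. The median was -0.14 in libraries 6 to 15. The 6 tenocyte markers had a median of -0.26, and of -0.33 in libraries 6 to 15. Their sums were 18.1 to 125 CPM in control and 30.7 to 136 with secretome. Schwann cell markers (5 genes) had a median of -0.22, satellite cell markers (2 tested) -0.11 and neuromuscular junction markers (4 genes) -0.20. Cartilage and bone markers (2 of 6 tested) had -0.27, muscle fibre markers (7 genes) 0.11 and neutrophil markers (3 tested) 1.33. The neutrophil values were wide, at 1.33 ± 0.864 for S100a8, 1.37 ± 0.872 for S100a9 and -0.12 ± 0.771 for Csf3r. Sums of the 4 neutrophil markers listed ran from 1.25 to 86.7 CPM in control and from 1.46 to 91.6 with secretome. The median sum was lower with secretome (7.84 CPM, against 9.16 in control). The muscle fibre median in libraries 6 to 15 was -0.08 and the neutrophil median -0.01, and between libraries 1 to 5 and 16 to 20 they were 0.41 and 1.68. The 4 skin markers were not tested.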

How the data were processed

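Counts per gene for 20 quadriceps were used as deposited, as raw counts in 1 column per muscle matched to a sample by its title, with no identical columns. The submitters' processing notes name STAR 2.7.9a, cutadapt 1.16, featureCounts 1.6.3, DESeq2 1.34.0 and GRCm39. The authors prepared stranded libraries; the annotation release and the strand setting are not given in the sources used here.

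The collagen members and all gene lists were chosen with earlier results of these data known. Identifiers were joined to symbols through GENCODE M21 (GRCm38), which also gave transcript lengths. Genes were filtered with filterByExpr, normalised with TMM and tested with edgeR 4.0.16 in R 4.3.3 (robust quasi-likelihood F-test, Benjamini-Hochberg adjustment over 14471 genes). Each standard error is the size of the log2 fold change divided by the square root of its F. Levels are CPM. The libraries are taken as separate mice, 10 per group, as the submitters state. Named members are those with a mean of at least 1 CPM or an unadjusted p under 0.05 over all muscles or libraries 6 to 15, with full values for the 2 most abundant per length and the 2 smallest p of each class, and the 2 smallest p of each pathway list. Alternatives were DESeq2 1.42.0, limma 3.58.1 voom, RLE factors, no filter, the replicate number as a block, ranges of library number, trends on GC content and length, and leaving out each muscle. Chain ratios were compared by permutation in scipy 1.17.1. The script was tested on simulated counts. Totals of 13286983 to 22987237 counts limit precision for members under about 1 CPM.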

Additional observations from a re-analysis of the deposited data

Results flagged for a closer look

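In 10 control and 10 secretome muscles the highest and lowest values of the 35 tested collagen genes were compared with the rest of their group by Dixon's criterion, in 70 groups in all. 2 were set apart, where chance alone gives about 3.5. Col19a1 was 20 CPM in control 9, and the next highest control muscle had 8.54 CPM. Control 9 held the highest value of 7 of the 35 genes. Col28a1 was 0.175 CPM in control 4, and the next lowest control muscle had 0.511 CPM, at a level where counts are few. No difference between groups of muscles and no signal outside the count table met the criteria for listing here.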

How the results depend on the processing

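Most values kept their direction and their side of the threshold. Over all 20 muscles DESeq2 called 1 member past the false discovery rate (0 by edgeR), and with the 3 ranges of library number as a term 2 members were lower at an unadjusted p under 0.05 (7 without it). The pathway lists, with 10 lower and 3 higher genes, gave 5 lower with the replicate number as a block, 4 lower and 1 higher with the ranges as a term, and 1 higher with GC content and length trends removed. The replicate block gave opposite signs for Col19a1 (0.07) and Col13a1 (0.02) and 5 lower members in place of 7: Col18a1 (p = 0.0502), Col4a5 (p = 0.0627) and Col6a6 (p = 0.185) were over 0.05 and Col16a1 (p = 0.0485) under it. Same-numbered muscles of the 2 groups did not deviate together (correlations of -0.24 to 0.221, 2 of 10 over 0.1). They lie in different ranges of library number, so the check cannot show whether they share more than a number. Voom gave 0.21 for Col19a1 and 0.26 for Col13a1. The range term gave 0.13 for Col6a6 and -0.24 for Col22a1, and the GC and length trends gave 0.12 for Col13a1 and -0.01 for Col22a1.

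Leaving out each muscle in turn, over all 20 muscles the lower members numbered 5 to 14, and log2 fold changes ran from -0.21 to 0.10 for Col12a1, -0.17 to 0.19 for Col13a1, -0.13 to 0.28 for Col19a1 and -0.10 to 0.10 for Col22a1. In libraries 6 to 15 there were 2 to 6 lower and 0 to 1 higher members and 16 to 34 with a negative fold change. There the fold changes ran from -0.79 to 0.04 for Col1a1, -0.64 to 0.10 for Col1a2, -0.31 to 0.19 for Col4a5, -0.16 to 0.05 for Col27a1 and -0.34 to 0.07 for Col4a4. For the difference of the contrasts there were 0 to 2 lower and 2 to 8 higher members, 4 to 15 with a negative value, and a median over other members of -0.12 to 0.36. The log2 ratio of Col1a1 to Col1a2 differed by -0.06 to 0.00. That of Col3a1 to Col1a1 differed by 0.12 to 0.26, with a permutation p of 0.0498 at 0.26, without secretome 3. No scaling moved the median of all genes by over 0.1. The causes were not tested. Ratios by the length of all exons, added after the data were seen, were 1.29 for Col4a1 to Col4a2, 1.78 for Col6a1 to Col6a2 and 0.929 for Col3a1 to Col1a1 in control.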
